A study of Mus musculus with 2 samples.

Results

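The 45 genes described here encode proteins of the large (60S) subunit of the cytoplasmic ribosome. They were taken from a list of symbols, from Rpl3 to Rplp2, and all 45 matched 1 protein-coding gene each among the 21887 protein-coding genes that RefSeq places on the mouse chromosomes (GRCm38.p6, whose chromosome positions are those of mm10). Chromatin bound by TOBF1 was measured in them by ChIP-Seq, that is, precipitation of crosslinked chromatin with an antibody and sequencing of the DNA. TOBF1 is the protein of A830080D01Rik. The cells were R1/E mouse embryonic stem (ES) cells grown with serum and LIF, in which TOBF1 was tagged in a BAC (bacterial artificial chromosome), a cloned stretch of genomic DNA. The series holds 1 library precipitated with an anti-GFP antibody and 1 input library of cells with the same construct and no antibody. A peak list of the first was analysed, so no value has a replicate error and no difference was tested. The list held 12181 peaks, of which 12012 lay on chromosomes. Each carries a score set by the authors' peak caller, read as −log10 of a q-value, with a median of 9.97 over the list. The sequencing depth is unknown. An untagged control and expression values were not analysed here, so binding by TOBF1 and signal that any antibody gives at highly transcribed genes cannot be told apart.

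Ribosomes translate messenger RNA into protein. The large subunit joins the amino acids at its catalytic centre, passes the new chain through an exit tunnel, and receives translation factors at a flexible stalk. Genes of ribosomal proteins are among the most strongly transcribed genes of growing cells, and their messenger RNAs typically begin with a C followed by a run of pyrimidines (C and T in DNA), the terminal oligopyrimidine tract through which mTOR signalling controls their translation. Many of them carry small nucleolar RNA (snoRNA) genes in their introns, whose products guide chemical modification of ribosomal RNA. Transcription by RNA polymerase II runs on past the site where the messenger RNA is cut and polyadenylated, and ends further downstream.

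The DNA around the annotated start of 8 of the genes is shown first, because the start is where a transcription factor might be looked for and where these genes share a sequence feature. RefSeq promoter entries (GRCm38.p6), which also give the strand, were matched for 34 of the 45 genes. The start here is that of the entry, which at some genes, such as Rpl7a, lies inside the outer limits of the gene. Each line holds the 50 bases before the start and the first 25 bases from it, 5′ to 3′ on the strand of the gene, and capitals mark the longest unbroken run of pyrimidines within 25 bases of the start on either side. The first 5 genes had peaks nearby and the last 3 had none.

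Rpl37a, chr1:72711210-72711284, plus strand: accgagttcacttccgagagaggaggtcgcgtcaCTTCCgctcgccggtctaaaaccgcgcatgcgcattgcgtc

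Rpl31, chr1:39367801-39367875, plus strand: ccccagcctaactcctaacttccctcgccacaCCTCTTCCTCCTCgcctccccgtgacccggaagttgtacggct

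Rpl27a, chr7:109519145-109519219, plus strand: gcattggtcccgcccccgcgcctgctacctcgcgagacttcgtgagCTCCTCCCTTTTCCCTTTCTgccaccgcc

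Rpl13, chr8:123102300-123102374, plus strand: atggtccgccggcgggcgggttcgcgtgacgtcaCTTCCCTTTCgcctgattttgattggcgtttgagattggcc

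Rpl15, chr14:18270962-18271036, minus strand: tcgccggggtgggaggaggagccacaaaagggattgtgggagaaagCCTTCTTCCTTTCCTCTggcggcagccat

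Rpl7a, chr2:26910757-26910831, plus strand: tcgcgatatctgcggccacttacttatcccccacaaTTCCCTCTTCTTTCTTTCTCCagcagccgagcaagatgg

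Rpl35, chr2:39005107-39005181, minus strand: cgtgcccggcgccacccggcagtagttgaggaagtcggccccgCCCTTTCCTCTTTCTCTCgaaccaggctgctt

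Rplp2, chr7:141447601-141447675, plus strand: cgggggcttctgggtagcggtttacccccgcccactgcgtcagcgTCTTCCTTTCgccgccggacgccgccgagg

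The pyrimidine run was 20 bases long at Rpl27a, 21 at Rpl7a, 18 at Rpl35 and 17 at Rpl15, but only 5 at Rpl37a. Over the 34 genes its median was 9.5 bases (from 3 to 21), against 5.0 over the 17492 protein-coding genes with such an entry; a gene with several annotated starts was counted by its longest run. A C followed by 4 pyrimidines stood exactly at the start in 7 of 34 genes (20.6%), against 2.67% of all genes with an entry, and within 5 bases of the start in 16 of 34 (47.1%, against 21.5%). In the window from 250 bases before the start to 50 after it, on either strand, the letters CCGGAAG, the core bound by ETS-family factors, occurred in 14 of 34 genes (41.2%, against 12.9% of all). GGGCGG, the GC box bound by Sp1, occurred in 23 (67.6%, against 49.2%), CCAAT in 11 (32.4%, against 42.3%), TATAAA in 4 (11.8%, against 14.8%) and AAGATGGC, a core of YY1 sites, in 3 (8.82%, against 3.57%). The octamer ATTTGCAT, bound by Oct4 and its relatives, was found in 0 of 34 windows (against 1.90% of all). These are matches of letters and not sites.

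None of these 34 promoter windows overlapped a TOBF1 peak, against 0.675% of the windows of all genes, a share at which 34 windows are too few to show a difference. The peaks at large-subunit genes with a known strand lay mostly behind the genes, in the stretch that follows the annotated end. Within 5 kb past the end, 22 of the 34 genes with a known strand had a peak (64.7%, exact 95% Clopper-Pearson interval 46.5 to 80.3%). Within 5 kb before the start, here the outer limit of the gene, 0 of the same 34 did (interval up to 10.3%). Over all 17492 protein-coding genes with a strand the shares were 3.42% past the end and 3.32% before the start. The intervals cover counting error only. Both stretches were chosen after the peaks had been seen, and the difference between them was not tested. Both stretches have the same length at each gene, so this contrast does not depend on the length of the gene.

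**Figure D1:**
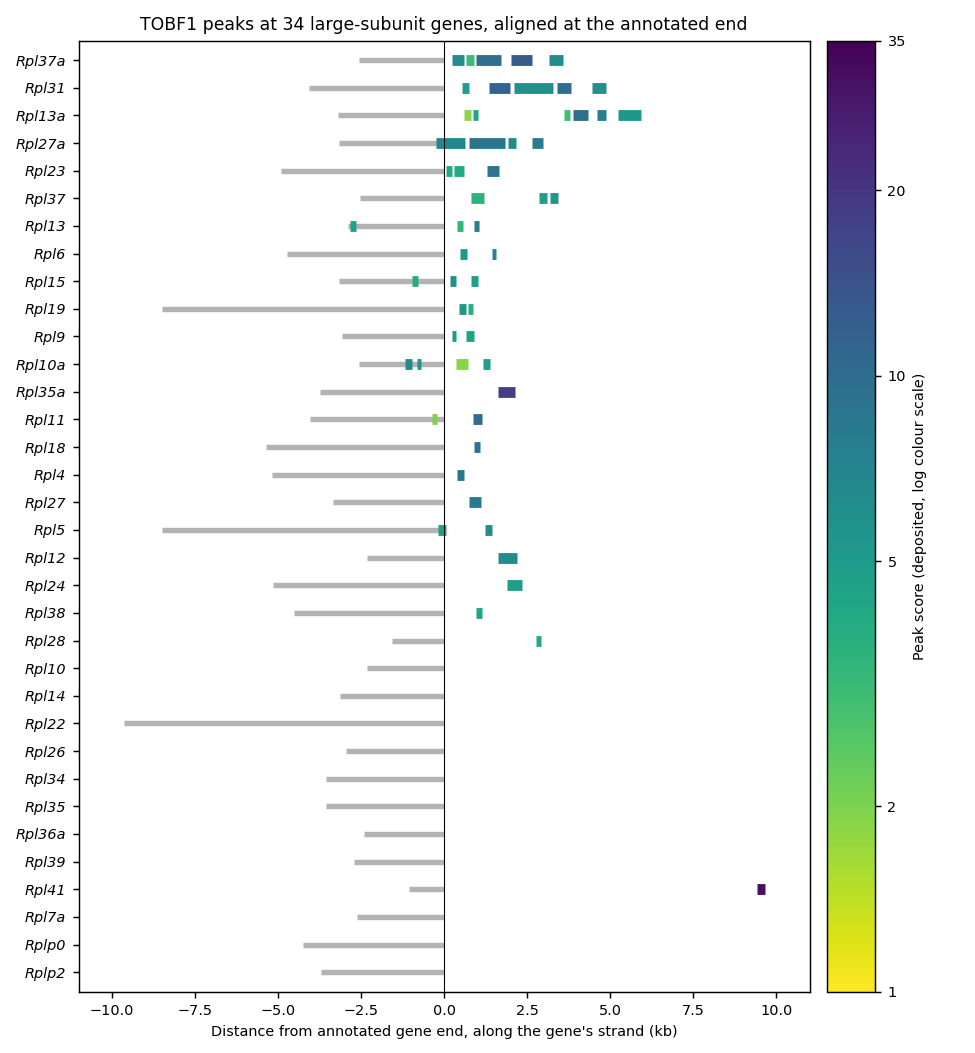
Peaks at the 34 large-subunit genes with a known strand, drawn along the strand of each gene, with 0 at the annotated end (x axis, kb) and the gene as a grey bar to its left. Coloured blocks are peaks within 10 kb of the gene, with the deposited score on a log colour scale, and genes are ordered by the number of peaks within 5 kb past the end. 49 of the 55 peaks lie to the right of the annotated end, 6 lie inside a gene, and 0 lie before a start.

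Counted peak by peak, 55 peaks lay in these 34 genes or within 10 kb of them, and 49 of the 55 had their midpoint past the annotated end. Another 6 lay inside a gene and 0 before a start. Of the 49, 47 lay within 5 kb of the end, with a median distance of 1053 bp (quartiles 670 and 2221 bp, from 138 to 4729 bp). The share of genes with a peak was 11.8% in the last kilobase of the gene, 41.2% in the first kilobase past the end, 35.3% in the next, then 17.6%, 11.8% and 5.88%. In all other protein-coding genes with a strand it stayed between 0.498% and 1.03% in each of the bins from 2 kb before to 10 kb past the end.

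**Figure D2:**
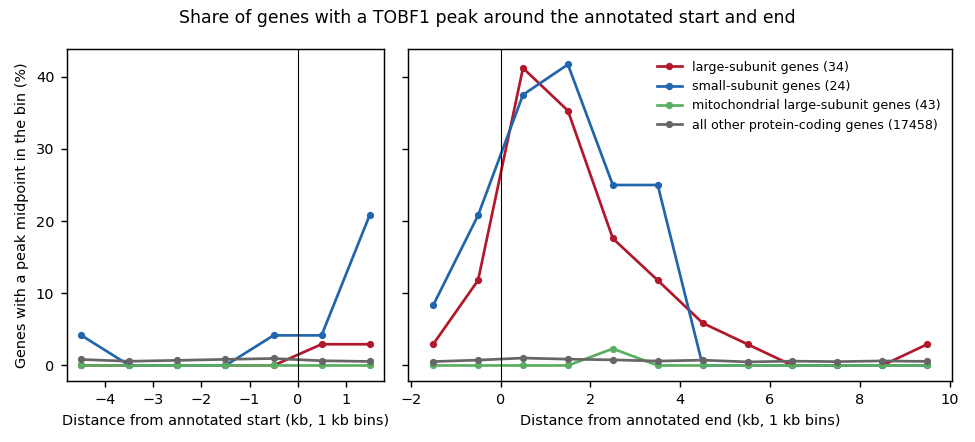
Share of genes with the midpoint of a peak in each 1 kb bin (y axis, %) around the annotated start (left) and the annotated end (right), with points at the middle of each bin. The line of the 34 large-subunit genes is at 0 in the 5 bins before the start and reaches 41.2% in the first bin past the end. The small-subunit genes are highest in the second bin past the end, while mitochondrial large-subunit genes and all other genes stay near the bottom.

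Around the gene ends themselves, 18 of all 45 genes had a peak midpoint within 1 kb of one end or the other (40.0%, interval 25.7 to 55.7%), against 2.67% of all protein-coding genes. Among the 34 with a strand, 16 had it at the annotated end (47.1%, against 1.63% of all genes with a strand) and 1 at the annotated start (2.94%, against 1.46%). The peak of Rpl11 lay just inside the limit of 1 kb, at 1000 bp, and those of Rpl37 (1008 bp) and Rpl38 (1053 bp) just outside it. Counting 10 kb on both sides and the gene itself, 29 of 45 genes had a peak (64.4%, interval 48.8 to 78.1%), against 21.6% of all protein-coding genes and 10.4% of those no longer than Rpl22, the longest of the 45 with 9647 bp.

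At several genes the peaks formed a row. Rpl37a, whose product is a zinc-finger protein of the subunit, had 5 peaks past its end on chromosome 1 (gene 72711260 to 72713813), with midpoints 404, 767, 1343, 2319 and 3365 bp from it. Their scores were 6.49, 3.11, 9.72, 13.2 and 6.1, so the highest was the one at 2319 bp (72715810 to 72716453). Together they reached from 0.227 to 3.57 kb past the end, and no other protein-coding gene end lay within 10 kb of them.

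Rpl31, which sits at the rim of the exit tunnel, also had 5, at 650, 1671, 2687, 3615 and 4652 bp past its end (chromosome 1, 39367851 to 39371911). They scored 4.87, 11.3, 5.86, 9.82 and 5.89, and the peak at 2687 bp was 1165 bp wide. All 5 lay inside the neighbouring gene Tbc1d8. The annotated end of Tbc1d8 lies within Rpl31, so any peak past the end of Rpl31 is nearer to Rpl31 than to that end. Nearness therefore cannot assign these peaks to either gene.

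Rpl27a (chromosome 7, 109519195 to 109522369) had 4 peaks that began inside the gene, 262 bp before its end, and reached to 2.99 kb past it. Their scores were 6.65, 8.91, 6.24 and 7.96. The first spanned 877 bp and the second 1088 bp, and the peaks filled 2304 bp of the 5 kb. The last 2 of them lay inside Denn2b.

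Rpl23, a protein of the face that joins the small subunit, had 3 peaks at 138, 435 and 1467 bp past its end, with scores of 4.12, 4.02 and 8.78. Rpl37 had 3 at 1008, 2964 and 3302 bp (3.55, 4.87 and 5.34). In these rows the peak nearest to the gene was never the highest. The highest peak of Rpl23 lay 141 bp from an end of 1700001P01Rik, and that of Rpl27a 256 bp from the annotated end of Denn2b. That of Rpl31 lay inside Tbc1d8. Those of Rpl37a and Rpl37 were nearer to their own gene than to another protein-coding gene.

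Rpl13a (chromosome 7, minus strand, 45125563 to 45128745) had 5 peaks within 5 kb past its end, in 2 clusters. The nearer 2, at 689 and 941 bp, scored 1.83 and 4.39. The other 3, at 3695, 4089 and 4729 bp, scored 2.92, 9.72 and 7.8, so the highest lay in the farther cluster.

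Rows of 3 or more peaks within 5 kb past the end were found in 6 of the 34 genes (17.6%), against 0.286% of all 17492 genes with a strand. Of the 50 genes that had such a row, 6 were large-subunit genes and 8 were small-subunit genes. Peaks within 1 kb of each other can be pieces of 1 enriched stretch. When they were merged, 0 of the 34 genes had 3 or more stretches there (0 of 17492 overall), so every such row holds peaks within 1 kb of each other. Rpl13a and Rpl37 had 2 stretches (2 of 34, against 0.143% of all), and the number of genes with any stretch past the end was 22.

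By their place in the subunit, the genes with and without peaks were mixed. The stalk proteins bring translation factors to the ribosome. Rplp0 and Rplp2 had no peak within 10 kb, and Rpl12, which forms the base of the stalk, had 1 at 1909 bp past its end (score 6.45). The remaining stalk gene, Rplp1, has no strand entry and is described below.

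Rpl5 and Rpl11 carry the 5S ribosomal RNA into the subunit and, when not built into a subunit, inhibit Mdm2, the ubiquitin ligase of p53. Both had a peak past the end: at Rpl11 (chromosome 4, minus strand, 136049354 to 136053393) it had a score of 10.1, and at Rpl5 it lay at 1344 bp (6.49), inside Dipk1a. Each had a further, lower peak just inside the gene, 285 bp before the end of Rpl11 (2.03) and 65 bp before the end of Rpl5 (4.78).

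Of the proteins that line the exit tunnel, Rpl4 had 1 peak at 498 bp past its end (8.63), which lay 237 bp from the annotated start of Snapc5, and Rpl39 had none. Around the exit itself, Rpl31 (above) and Rpl19 had peaks, those of Rpl19 at 542 and 786 bp with scores of 5.3 and 3.72. Rpl22, Rpl23a, Rpl26 and Rpl35, which also surround the exit, had no peak within 10 kb.

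At the catalytic centre and the L1 stalk, which guides used tRNA off the ribosome, Rpl10a had 2 peaks past its end at 536 and 1269 bp (1.91 and 4.87). It had 2 more inside the gene, 1068 and 754 bp before the end, with scores of 6.35 and 5.51. Rpl8 and Rpl10 had none. Rpl10a was the only gene of the 34 with 2 peaks inside it.

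Rpl13 (chromosome 8, 123102350 to 123105244) was the only gene of the 34 with a peak within 1 kb of its annotated start. That peak (123102404 to 123102579, score 4.59) began 54 bp and ended 229 bp after the start, so it lay in the gene and just outside the promoter window, and not in the bases printed above. Rpl13 also had peaks at 488 and 964 bp past its end (3.39 and 7.66), the second with the highest score at this gene.

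Peaks within 5 kb past the end were also found at 9 further genes. Rpl6 (570 and 1496 bp, scores 5.08 and 7.12), Rpl9 (293 and 777 bp, 5.09 and 4.53) and Rpl15 (266 and 904 bp, 5.96 and 4.7) had 2 each. Rpl15 had another inside the gene (3.93). Of the genes with 1 peak, Rpl27 had it at 932 bp (8.44), Rpl18 at 980 bp (8.96) and Rpl38 at 1053 bp (4.29). Those of Rpl24, whose product reaches across to the small subunit (2123 bp, 4.91), and Rpl28 (2828 bp, 4.18) lay further out. Rpl35a, a gene mutated in Diamond-Blackfan anaemia, had the highest score within 5 kb past any of the ends (18.1, at 1869 bp; chromosome 16, 33061800 to 33062316). It lay 188 bp from the annotated start of the next gene, Lmln. Rpl41, which encodes a very short basic peptide, had no peak within 5 kb, and 1 with a score of 30.6 at 9531 bp past its end, which was nearer to Zc3h10.

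Few of these peaks lay at the starts of neighbouring genes. Of the 47 within 5 kb past an end, 3 lay within 1 kb of an annotated start of another protein-coding gene, namely those at Rpl4, Rpl18 and Rpl35a, and 5 within 1 kb of another gene's annotated end. A further 5 were that near to a gene without a strand entry. Leaving out peaks nearer to another protein-coding gene outside the 45 left 17 of the 22 genes (without Rpl4, Rpl10a, Rpl13a, Rpl18 and Rpl35a). Of the 47 peaks, 32 were at least as near to the large-subunit gene as to another protein-coding gene. The peak of Rpl24 was kept by a tie, 2123 bp from its own end and from the annotated start of Zbtb11. Leaving out the 12 peaks inside another protein-coding gene also left 17 (without Rpl5, Rpl18, Rpl24, Rpl31 and Rpl35a). Only Rpl18 and Rpl35a were lost both times, so fewer than 17 genes would pass both, and the leave-outs were not combined.

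For 11 genes no strand entry was matched, and their peaks are given by coordinate. Of these, 6 had peaks. In each of the 6 the peaks within 5 kb of the gene lay on 1 flank only. Rpl30 had 7, all below its lower coordinate on chromosome 15 (34440505), at 1274 to 6663 bp from it. The nearest of them scored 12.5 (34439115 to 34439346) and the others 1.46 to 8.65. The 5 farthest were nearer to an end of Matn2 than to Rpl30, and 2 of these lay inside Matn2.

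Rplp1, a protein of the stalk, had 3 below its gene (chromosome 9, 61913283 to 61914510), at 2748, 3353 and 3939 bp. Their scores, in the same order, were 30.5, 13.7 and 3.75, and the first was the strongest peak within 5 kb of any of the 45 genes. It was 751 bp wide (61910160 to 61910910).

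Rpl32 had 2 peaks below the gene (876 and 1410 bp, scores 3.39 and 9.11), both inside Cand2. Rpl17 had 2 above it (1758 and 2349 bp, 5.8 and 8.73), both within 1 kb of BC031181 and nearer to it than to Rpl17. Leaving out peaks nearer to another protein-coding gene left 5 of the 6 genes with a peak (without Rpl17), and leaving out those inside another gene also left 5 (without Rpl32). Rpl21 had 1 inside and 3 above, with scores between 2.14 and 5.15.

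Rpl3, a protein next to the catalytic centre, differed from the others in that 4 of its 6 peaks lay inside the gene (chromosome 15, 80077781 to 80083406). These scored 6.12, 9.16, 4.53 and 3.39. A peak 1524 bp wide lay 1261 bp below the gene (7.45), and the strongest, 23.4, lay 7668 bp above it and 260 bp from the annotated start of Syngr1.

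**Figure D3:**
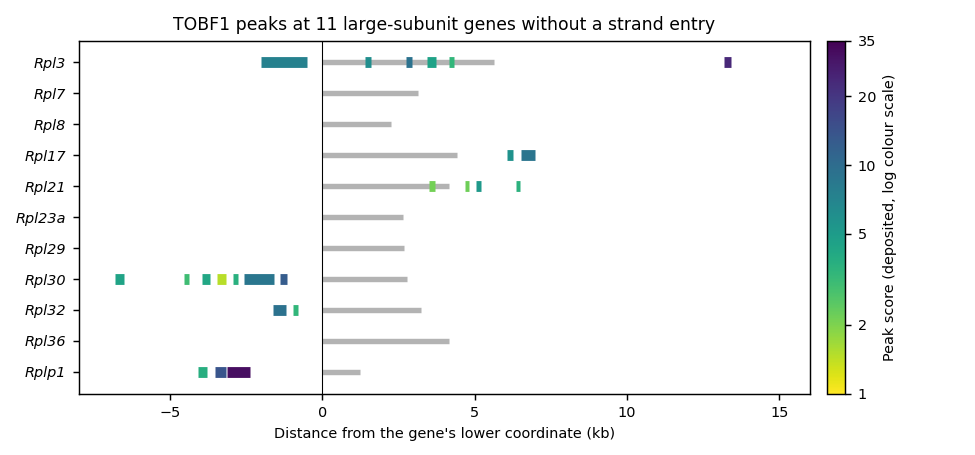
Peaks at the 11 large-subunit genes without a strand entry, drawn from the lower coordinate of each gene (x axis, kb), with the gene as a grey bar and peaks as blocks coloured by score on a log scale. The peaks of Rpl30, Rpl32 and Rplp1 lie below the gene and those of Rpl17 and Rpl21 in or above it, while Rpl7, Rpl8, Rpl23a, Rpl29 and Rpl36 have none within 10 kb.

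In all, 16 of the 45 genes had no peak within 10 kb. Besides those named above they were Rpl7, Rpl7a, Rpl14, Rpl29, Rpl34, Rpl36 and Rpl36a. The 3 genes on chromosome X, Rpl10, Rpl36a and Rpl39, were among the 16. A share for the whole of chromosome X is not given here, so no pattern of that chromosome can be read from 3 genes. The median length was 3544 bp over the 22 genes with a peak within 5 kb past the end and 3053 bp over the 12 without. The median pyrimidine run at the start was 10.0 bases with such a peak and 8.0 without, and CCGGAAG occurred in 8 of 22 and 6 of 12. TATAAA was found in 0 of 22 and in 4 of 12. With so few genes these splits are given as counts only.

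The scores were mostly below the median of the list. The highest score at the ends of the 18 genes had a median of 5.41 (from 3.39 to 10.1), against 8.07 over the 585 protein-coding genes with a peak there. Past the end it had a median of 7.39 over the 22 genes, against 8.47 over 598. Of the 79 distinct peaks in or within 10 kb of the 45 genes, 9 reached the median score of the list. At that score 1 of 45 genes (Rpl11) had a peak at an end (2.22%, against 0.937% of all), and 4 of 34 (Rpl11, Rpl31, Rpl35a and Rpl37a) had one within 5 kb past the end (11.8%, against 1.35%). The scores of the 22 peaks in the first kilobase past the end had a median of 4.97. They had medians of 7.12 over the 11 peaks in the second, 5.86 over 7 in the third and 6.1 over the 7 beyond.

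**Figure D4:**
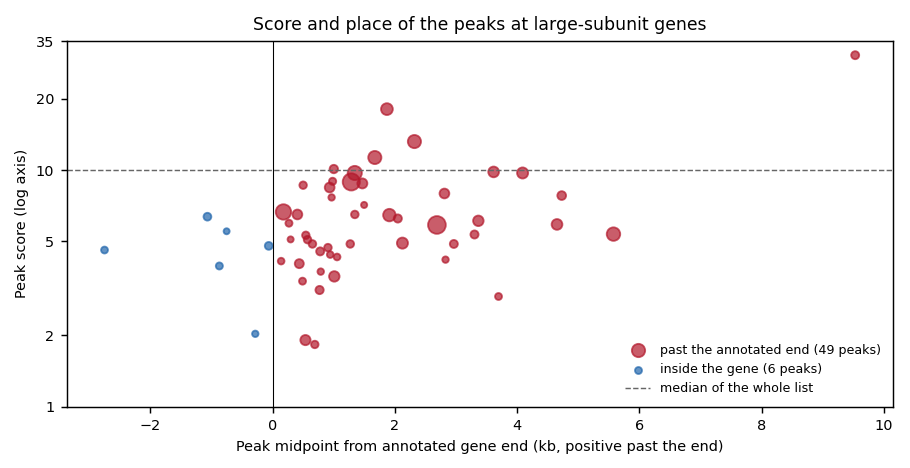
Score (y axis, log scale) of each peak at the 34 large-subunit genes with a strand against the place of its midpoint relative to the annotated end (x axis, kb). Area of the points is proportional to peak width, red points lie past the end and blue points inside the gene, and the dashed line is the median of the whole list (9.97). 4 of the 47 peaks within 5 kb past the end are above the line.

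Those within 5 kb past the end were 248 bp wide at the median (quartiles 200 and 418 bp), against 216 bp over all peaks (170 and 286 bp). In the 5 kb past their end, 598 genes had any bases covered by peaks, and 22 of these were large-subunit genes. Of the 100 with the most bases covered, 9 were large-subunit genes. Rpl31 had 57.5% of this stretch covered, Rpl37a 48.1% and Rpl27a 46.1%. The peaks of Rpl31 all lay inside Tbc1d8, and some of those of Rpl27a inside Denn2b.

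SnoRNA genes lay wholly inside 19 of the 45 genes and numbered 39, up to 5 of them in Rpl4. Of the 19 hosts 9 had one of the peaks at an end, within 1 kb (47.4%, interval 24.4 to 71.1%), and of the 26 other genes also 9 (34.6%, interval 17.2 to 55.7%). The intervals of hosts and other genes overlap. Among all protein-coding genes the shares were 9.68% of the 372 with a snoRNA gene and 2.55% of the others. Without the 45 genes themselves they were 7.65% of 353 and 2.51% of 21489. Past the end within 5 kb, 9 of 13 hosts with a strand had a peak (69.2%, against 12.6% of all 302 such hosts) and 13 of 21 non-hosts (61.9%, against 3.26% of all 17190). Without the large-subunit genes the wider shares were 10.0% of 289 hosts and 3.19% of 17169 non-hosts.

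No peak overlapped a snoRNA gene of the 45 genes (0 of 39), against 1.19% of all 1340 snoRNA genes and 1.08% of the 461 inside a protein-coding gene, shares at which 39 genes are too few to show a difference. The nearest approach was 143 bp, at a snoRNA gene of Rpl3 (LOC115488570), followed by 479 bp at Snord68 in Rpl13. In Rpl13a, which holds Snord32a, Snord33, Snord34 and Snord35a, the nearest peak was 1371 bp from any of them. Rpl7a holds 4 snoRNA genes and Rpl23a 3, and neither gene had a peak.

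Related genes were counted in the same way. Of the small-subunit genes, whose proteins decode messenger RNA, 14 of 24 with a strand had a peak within 5 kb past the end (58.3%, interval 36.6 to 77.9%) and 2 before the start (8.33%). Their highest scores past the end had a median of 9.38 over 14 genes, and Rps12 (20.1), Rps20 (10.2) and Rps9 (9.39) were among the 5 highest at gene ends. Genes of the mitochondrial large subunit, which translates the few messages of the mitochondrial genome, had a peak past the end in 1 of 43 cases (2.33%, Mrpl51 with a score of 5.36). Factors that assemble the 60S subunit, such as Nmd3 and Eif6, had one in 1 of 17 (5.88%, Ebna1bp2 with 5.08). The 6 paralogues of large-subunit genes, among them Rpl3l and Rpl22l1, had 0 of 6. The share over all protein-coding genes with a strand was 3.42%. At gene ends within 1 kb, the counts were 15 of 32 for small-subunit genes and 0 for each of the other lists (of 49, 22 and 6). The share over all protein-coding genes, 2.67%, lies within the intervals of these other lists, which reach 7.25%, 15.4% and 45.9%. Their counts of 0 therefore show no difference from it.

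**Figure D5:**
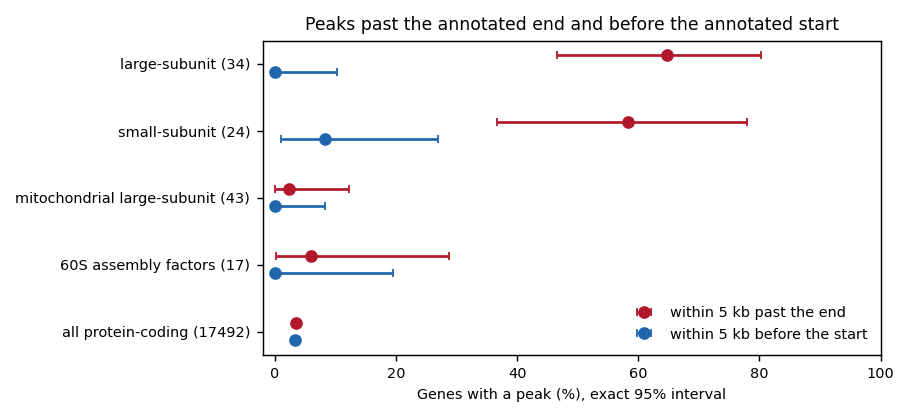
Share of genes with a peak within 5 kb past the annotated end (red) and within 5 kb before the annotated start (blue), as points with exact 95% intervals (x axis, %), for each list (number of genes with a strand in brackets). For large-subunit genes the interval past the end is 46.5 to 80.3%, and that before the start ends at 10.3%. Both stretches were chosen after the peaks had been seen, and the difference was not tested.

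Reads shared between genes and their processed copies can blur such counts, and how the authors treated them is not given in the sources used here. Of 194 pseudogenes named for one of the 45 genes, 0 had a peak midpoint inside and 2 had one within 1 kb of an end (1.03%, exact interval 0.125 to 3.67%). The share of all protein-coding genes with a peak that near, 2.67%, lies within this interval, and a share over all pseudogenes is not given here. Whether shared reads blurred the counts was not tested.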

How the data were processed

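Per the labels, the precipitated library and the input come from R1/E ES cells that carry the tagged gene. The submitters' processing notes name cutadapt, Bowtie2, MACS2 and bedtools and the mm10 build. Versions, settings and any use of the input as control were not given in the sources used here. Each row of the deposited list holds a position and a score. This deposited score was taken for a −log10 q-value of the authors' peak caller, since the lowest value, 1.304, lies just above 1.301, the −log10 of 0.05. Scores depend on depth and local background and were compared only within this list.

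Gene positions came from a RefSeq table, and strand from RefSeq promoter entries (34 of the 45 genes, 17492 of 21887 protein-coding genes). For counts of peaks around the start and end, these are the outer limits of the gene on its strand. The printed sequences, pyrimidine runs and promoter windows use the start of the promoter entry instead. That start can lie inside the gene, as at Rpl19 (98026710 and 98026924, against an outer limit of 98022003). A peak was placed by its midpoint. Only peaks on chromosomes were counted. The genes, lists and windows were chosen with earlier results of these data known. The 5 kb stretches past the end and before the start, and their alternatives, were added after the peaks had been seen. All 45 genes are accounted for by name. Of other genes, those of the fixed lists (at most 5 per list by score at gene ends) and neighbours of a peak were named. Mrpl51, Ebna1bp2, the pseudogenes and the genes named as examples of a list fall outside that rule and were chosen after their values were seen. Values of some genes are not reported here. Peak sequences and exons were not analysed here. The placement was tested on simulated peaks. Python 3.11.15, NumPy 2.4.6, pandas 2.3.3, SciPy 1.17.1 and matplotlib 3.10.9 were used.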

Additional observations from a re-analysis of the deposited data

How the results depend on the processing

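Counts are of genes among the 45, or among the 34 with a strand. With a window of 500 bp, 9 of 45 had a peak at an end (18 at 1 kb), 9 at the annotated end, and 5 snoRNA hosts and 4 other genes had one. With a window of 5 kb, 28 had one, 14 of them hosts and 14 not, and the median of the highest scores rose to 8.54. With only peaks at or above the median score, 1 had a peak at an end (0 hosts and 1 other gene, 0 at the start and 1 at the annotated end), 8 had one within 10 kb and 4 within 5 kb past the end. A C and 4 pyrimidines stood within 5 bases of the start in 16 genes. Past the end, 20 genes had a peak within 2 kb and 23 within 10 kb, and before the start 0 at either distance. With peaks within 1 kb merged, 0 genes had 3 or more stretches past the end (6 genes with 3 or more peaks as deposited). The other alternatives stayed within 1.5 times the main count. Depth and replicate spread could not be assessed from 1 peak list.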
